A study of Mus musculus with 14 samples.

Results

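Pancreatic islets of mice without the Toll-like receptors TLR2 and TLR4 (Tlr2/Tlr4 double knockout, DKO, on a C57BL/6 background) were compared with islets of wild-type C57BL/6 mice (WT) after 5 weeks on a high-fat diet. The comparison rests on 6 of the 14 arrays of the series, 2 DKO and 4 WT, taken by genotype and time in the sample titles. Both genotypes received the diet, with 60% fat, from 6 weeks of age, so the WT mice are controls fed the same diet and no lean group enters. The labels give each array as 1 mouse, do not name the C57BL/6 substrain of either genotype, and name no cell type to which the loss of the receptors is limited. The other 8 arrays, 4 of each genotype after 7 months on the diet, share the estimate of the spread and serve here as a second time. The title of the series concerns control of adaptive beta cell expansion by both receptors in diet-induced obesity.

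Toll-like receptors are innate immune sensors. The TLR2 protein binds bacterial lipopeptides together with a partner receptor, and TLR4 binds lipopolysaccharide with its co-receptors; both signal through adaptor proteins to NF-kB, and TLR4 also to interferon genes. In islets they are found on resident macrophages and, at lower levels, on endocrine cells. In the face of a fatty diet beta cells enlarge and divide, and Reg proteins, secreted lectin-like proteins made by islet and acinar cells under stress, are known as markers of regeneration.

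All genes with a probe set that carries a single symbol were tested, 18820 in number, each by its brightest probe set. Values are log2 RMA signals of the array, on which a difference of 1 is a 2-fold change. A gene is said to have risen or fallen where its limma p-value, adjusted by Benjamini-Hochberg over all 18820 genes, was under 0.05. Medians of the 6 arrays lay between 3.93 and 3.97. Pairs of WT arrays correlated at 0.993 to 0.995 over all genes, DKO replicate 2 with WT at 0.990 to 0.992, DKO replicate 1 with WT at 0.988 to 0.990, and the DKO arrays with each other at 0.991. The hormone genes that define islets were all bright (Ins2 at 11.8 to 12.0, Gcg at 12.81 to 13.01 and Sst at 12.8 to 12.9 over the 6 arrays). With whole islets as the sample, fewer cells of a type and less RNA per cell cannot be told apart.

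Tlr2, 1 of the deleted genes, fell (probe set 10498992). Its signal was 6.47, 6.50, 6.22 and 6.62 in WT and 4.77 and 4.82 in DKO islets, a 3.16-fold difference (-1.66 ± 0.12, SE of the log2 difference, limma adjusted p = 9.71e-06). Tlr4, the other deleted gene, was dim (probe set 10505517, at percentile 32.9 of the tested genes against 62.8 for Tlr2) and read 2.86, 2.87, 2.79 and 2.90 in WT and 3.23 and 3.19 in DKO. Both DKO arrays thus lay above WT for Tlr4, which did not pass (0.35 ± 0.20, limma adjusted p = 0.506). Exact two-sided permutation of the labels gave p = 0.0667 for each gene, the smallest p that 2 against 4 arrays allow. Whether either probe set lies inside a deleted part was not analysed here, and the value of Tlr4 does not check the labels.

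Of 26 measured Toll-like receptors, co-receptors and adaptors, only Tlr2 passed, and the median difference of the list was 0.04 against 0.01 over all genes. Irak3, a kinase-like brake on this signalling, was 5.71 to 5.84 in WT and 6.04 and 6.25 in DKO (0.36 ± 0.10, limma adjusted p = 0.135). The adaptor gene Myd88 (0.29 ± 0.13, adjusted p = 0.379) and Tlr3, a sensor of double-stranded RNA (-0.27 ± 0.12, adjusted p = 0.37), did not pass either. No member passed among 30 NF-kB target, cytokine and chemokine genes, whose median difference was 0.05, with 1 member higher and 1 lower at an unadjusted p under 0.05 in limma. At that unadjusted level 6.42% of all genes were higher in DKO and 5.71% lower.

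Over the whole array 187 of 18820 genes passed (0.994%), 94 higher in DKO (0.499%) and 93 lower (0.494%). Of these, 51 differed at least 2-fold, 27 higher and 24 lower, and the median size of the called differences was 0.80 on the log2 scale. In all 187 the DKO and WT arrays did not overlap. Over all genes, both DKO arrays lay above all WT arrays in 11.2% and below them in 10.3%. For 43 of the 187 the lower group mean was under every array median, so that the size of the change is not exact, and in 21 of them both means were, 20 of these being rises. Leaving out 1 array moved the count of calls to between 44 (without DKO replicate 1) and 171 (without DKO replicate 2). Without WT replicate 1 it was 120, 117 of them among the 187, and without WT replicate 2 it was 104, 100 of them among the 187. A total does not show which calls were kept: without DKO replicate 2 many of the calls were not among the 187. In all 6 fits that left out 1 array, 29 genes passed, 14 higher and 15 lower, among them Reg2, Fbp1, Trnp1, Nnt, Tlr2, Ndufs5, Rec8, Dock10, Dio1 and Ust.

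**Figure D1:**
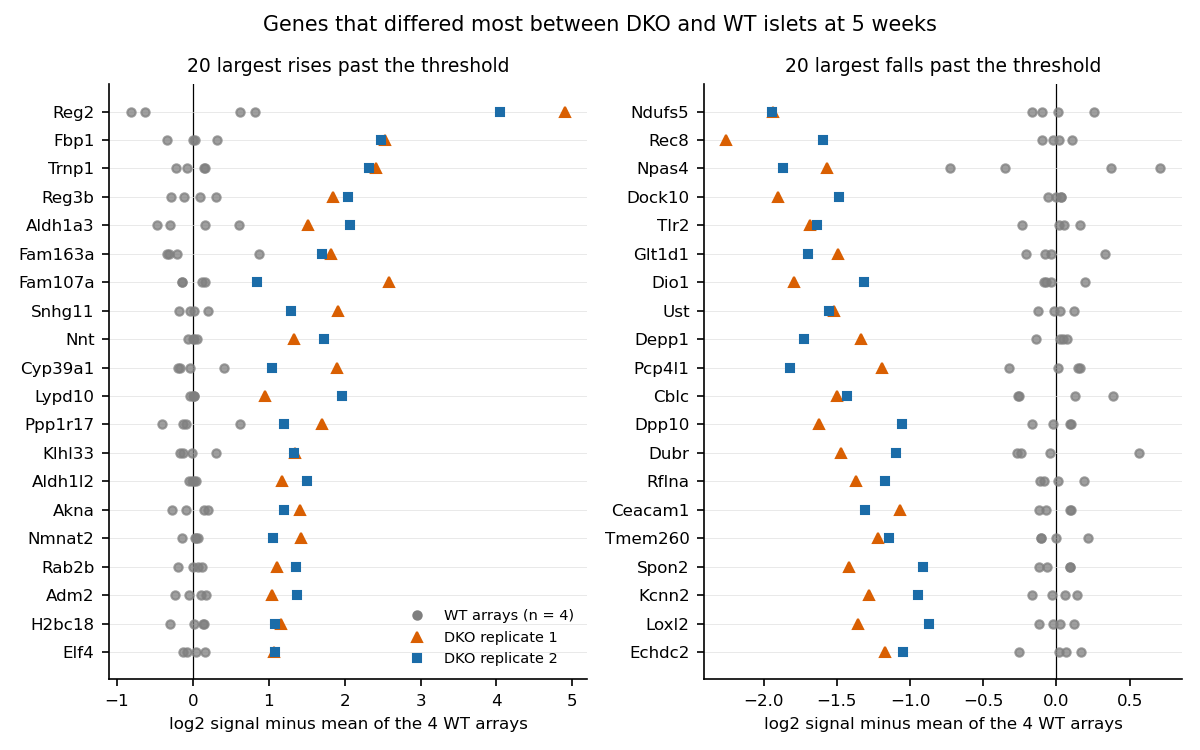
The 20 largest rises (left) and falls (right) past the threshold, leaving out genes with placeholder or small nucleolar RNA symbols (Gm773, a rise, and Snord73b, a fall), with 1 row per gene and 1 point per array: log2 signal minus the mean of the 4 WT arrays. Every DKO point lies outside the range of the WT points, and Reg2 stands furthest out, with a difference of 4.47.

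Reg2 was the gene with the largest rise. It read 3.69, 2.25, 2.43 and 3.89 in WT and 7.97 and 7.11 in DKO islets, so that the groups lay more than 3 log2 units apart (4.47 ± 0.48, 22.2-fold, limma adjusted p = 0.000279). Reg3b, an antibacterial lectin of the same family, read 2.97, 2.37, 2.54 and 2.76 in WT and 4.51 and 4.70 in DKO (1.94 ± 0.38, 3.85-fold, adjusted p = 0.0242). Both genes were below the array medians in WT, so their folds are not exact.

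Of the 7 Reg genes measured, 6 had a higher mean in DKO and 1 a lower one, with a median difference of 1.06. Reg3d read 3.78, 2.60, 4.00 and 4.26 in WT and 6.19 and 5.35 in DKO without passing (2.11 ± 0.51, limma adjusted p = 0.0701), and neither did Reg3a (0.58 ± 0.21, adjusted p = 0.252). Reg1 was brighter and spread more widely, at 7.47, 5.37, 6.62 and 7.99 in WT and 8.21 and 7.64 in DKO (1.06 ± 0.87, adjusted p = 0.707), and its groups overlapped.

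Promoter sequences of Reg2, Reg3b and Reg1 are shown because they lie near each other on mouse chromosome 6 and differ in how the genes behaved here. Each is the 250 bases before the annotated start site from RefSeq on GRCm38.p6, and capitals mark matches to TATAAA, the core of a TATA box, searched on both strands.
Reg2, chr6:78404905-78405154, plus strand: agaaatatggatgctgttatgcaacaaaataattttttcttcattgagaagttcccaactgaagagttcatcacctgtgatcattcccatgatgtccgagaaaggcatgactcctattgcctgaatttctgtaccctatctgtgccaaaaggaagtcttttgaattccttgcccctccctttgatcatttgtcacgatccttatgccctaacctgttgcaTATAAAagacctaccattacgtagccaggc
Reg3b, chr6:78370635-78370884, plus strand: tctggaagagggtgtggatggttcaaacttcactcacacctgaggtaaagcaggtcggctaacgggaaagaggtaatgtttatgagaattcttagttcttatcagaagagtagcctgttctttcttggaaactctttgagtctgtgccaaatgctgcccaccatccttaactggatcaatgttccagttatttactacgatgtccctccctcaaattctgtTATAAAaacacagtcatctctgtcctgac
Reg1, chr6:78425733-78425982, plus strand: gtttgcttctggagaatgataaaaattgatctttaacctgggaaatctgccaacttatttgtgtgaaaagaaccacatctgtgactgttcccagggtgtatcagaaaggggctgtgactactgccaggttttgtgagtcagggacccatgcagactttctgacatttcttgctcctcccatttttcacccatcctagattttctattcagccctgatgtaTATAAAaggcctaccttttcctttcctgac
All 7 Reg genes had a promoter in the table, 6 of them on chromosome 6, and 4 of the 7 held TATAAA, against 12.4% of all 32851 promoters. The match began 30, 29 and 30 bases before the start in Reg2, Reg3b and Reg1. It was therefore shared by genes that rose and by Reg1, which did not pass.

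Acinar cells, the exocrine neighbours of islets, also express Reg genes. None of 26 measured acinar genes passed; at an unadjusted p under 0.05 limma gave 5 higher and 0 lower, and the median difference was 1.07. The list mean, each gene centred over the 6 arrays, was 0.00, -1.71, 0.14 and 0.23 in the WT arrays, in replicate order, against 0.88 and 0.45 in the DKO arrays. WT replicate 2 thus stood far below the rest, and both DKO arrays lay above all WT arrays. The list mean was 1.00 higher in DKO, and 0.54 higher without WT replicate 2. Defining enzymes were well detected in every array: Cpa1, carboxypeptidase A1, read 10.3, 8.29, 10.8 and 10.7 in WT and 11.1 and 10.8 in DKO. With the acinar mean as a covariate Reg2 was still called (3.93 ± 0.40, limma adjusted p = 0.000604), and without WT replicate 2 also (4.20 ± 0.47, adjusted p = 0.000895). Reg3b was not called in either fit (adjusted p = 0.0919 and 0.0705), nor without WT replicate 3 (0.0592), DKO replicate 1 (0.178) or DKO replicate 2 (0.11).

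Enzymes of sugar and lipid metabolism were among the largest rises. Fbp1, fructose-1,6-bisphosphatase, a key enzyme of gluconeogenesis, read 4.53, 4.50, 4.82 and 4.17 in WT and 7.04 and 6.98 in DKO (2.51 ± 0.20, 5.69-fold, limma adjusted p = 1.81e-05). It was the only called gene of 28 measured in glycolysis and gluconeogenesis, where 9 members had a higher and 19 a lower mean in DKO. Its paralog Fbp2 was dim, at 2.99 to 3.46 in WT and 4.21 and 3.61 in DKO (0.72 ± 0.21, adjusted p = 0.132).

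Aldh1a3, which makes retinoic acid and marks beta cells that have lost their identity, read 4.55, 4.08, 4.99 and 3.92 in WT and 5.90 and 6.46 in DKO (1.80 ± 0.33, 3.47-fold, limma adjusted p = 0.0174). It missed the threshold without WT replicate 2 (adjusted p = 0.052), DKO replicate 1 (0.0788) or DKO replicate 2 (0.118). No other of 24 dedifferentiation and disallowed genes passed, and 15 of the 24 had a lower mean in DKO. In the retinoid list Bco1, which cleaves beta-carotene, came near the threshold at 5.44 to 5.82 in WT and 6.11 and 6.66 in DKO (0.72 ± 0.16, adjusted p = 0.0503).

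Cyp39a1, an oxysterol 7-alpha-hydroxylase, rose from 5.02 to 5.63 in WT to 7.12 and 6.27 in DKO (1.47 ± 0.24, 2.77-fold, limma adjusted p = 0.00904), and not without DKO replicate 1 (1.05, adjusted p = 0.179). Vnn1, a pantetheinase and a target of PPAR-alpha, rose from a dim 2.71 to 3.01 to 3.68 and 3.89 (0.92 ± 0.16, adjusted p = 0.0134); without DKO replicate 1 or 2 its adjusted p was 0.0759 and 0.0884. Further rises in lipid handling were Elovl7, a fatty acid elongase (0.83 ± 0.15), and Degs2, a sphingolipid desaturase (0.86 ± 0.16). In the other direction Apoa2, an apolipoprotein of high-density lipoprotein (-1.02 ± 0.19), Abhd4, a lysophospholipase (-0.80 ± 0.13), and Mboat2, a lysophospholipid acyltransferase (-0.64 ± 0.11), fell. None of these 5 was called without DKO replicate 1 (adjusted p = 0.145, 0.243, 0.316, 0.193 and 0.201 in that order), nor were Elovl7 without DKO replicate 2 (0.0808) and Apoa2 without WT replicate 2 (0.0571). Of 34 cholesterol, oxysterol and fatty acid synthesis genes Cyp39a1 alone passed, and the list median was 0.06.

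Mitochondrial genes moved in both directions, and a pair of them ranked among the clearest differences in the data. Nnt, the nicotinamide nucleotide transhydrogenase that makes mitochondrial NADPH and is partly deleted in the C57BL/6J substrain, read 7.01, 7.00, 7.05 and 6.94 in WT and 8.33 and 8.73 in DKO (1.53 ± 0.11, 2.89-fold, limma adjusted p = 9.71e-06). Its other, dimmer probe set differed by 0.30, from 4.15 to 4.45. Ndufs5, an accessory subunit of respiratory complex I, read 7.41, 7.31, 7.66 and 7.24 in WT and 5.47 and 5.46 in DKO (-1.94 ± 0.16, 3.83-fold lower, adjusted p = 3.4e-05). Both genes kept their call in every alternative that was run.

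The rest of complex I did not follow Ndufs5. Among 34 measured subunits, 26 had a higher mean in DKO and 8 a lower one, the median difference was 0.12, and 9 were higher and 2 lower at an unadjusted p under 0.05. Ndufa3, another accessory subunit, rose from 7.07 to 7.49 in WT to 7.92 and 7.85 in DKO (0.63 ± 0.12, limma adjusted p = 0.0189). Leaving out WT replicate 2 gave an adjusted p of 0.0541, leaving out DKO replicate 1 gave 0.201, and leaving out DKO replicate 2 gave 0.0693; the 6 arrays alone gave 0.0872 and the acinar covariate 0.0654. Ndufb8 (0.48 ± 0.13, adjusted p = 0.096) and Ndufs8 (0.42 ± 0.11, adjusted p = 0.101) lay on the same side without passing. In complexes II to V, 39 genes, none passed, with 7 higher and 1 lower at an unadjusted p under 0.05 in limma, and the largest difference by p was that of Cox4i1, a subunit of cytochrome c oxidase (0.38 ± 0.11, adjusted p = 0.127). With centring on array medians and with repeated quantile normalization the direction of each named subunit stayed the same.

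Acadl, Echdc2 and Gpd2, further mitochondrial enzymes, fell. Acadl, the long-chain acyl-CoA dehydrogenase of fatty acid oxidation, was 7.06 to 7.18 in WT and 6.32 and 6.21 in DKO (-0.87 ± 0.19, limma adjusted p = 0.0388), a call that was lost whichever of the 6 arrays was left out (adjusted p = 0.075 to 0.207), and with the acinar covariate (0.0885) or array weights (0.077). Echdc2, an enoyl-CoA hydratase family member, was 7.05 to 7.47 in WT and 6.13 and 6.25 in DKO (-1.11 ± 0.13, 2.16-fold lower, adjusted p = 0.000484). Gpd2, the mitochondrial glycerol-3-phosphate dehydrogenase that carries cytosolic reducing power into the respiratory chain, was 8.78 to 9.05 in WT and 8.28 and 8.12 in DKO (-0.68 ± 0.13, adjusted p = 0.021). Gpd2 was not called without WT replicate 2 (adjusted p = 0.0542), WT replicate 3 (0.0543), DKO replicate 1 (0.112) or DKO replicate 2 (0.12), whereas Echdc2 was called in each of these fits. Of the 30 fatty acid oxidation and PPAR target genes, Vnn1 rose, Acadl fell and 20 had a lower mean in DKO. In the NADPH and redox list, 37 genes, Nnt alone passed, while Hmox1, haem oxygenase 1, at 5.18 to 5.86 in WT and 6.72 and 6.11 in DKO, did not (0.85 ± 0.28, adjusted p = 0.209).

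**Figure D2:**
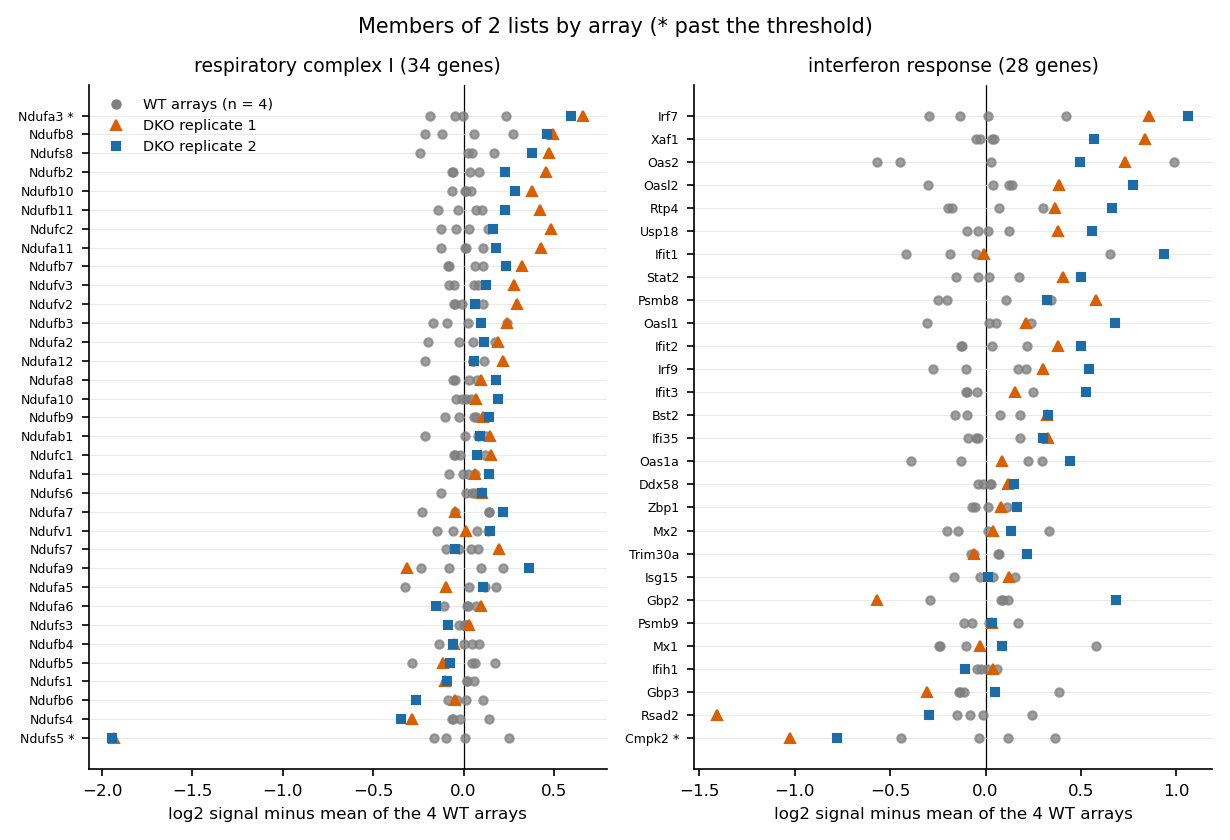
Complex I subunits (left) and interferon response genes (right) by array, as log2 signal minus the mean of the 4 WT arrays; a star marks genes past the threshold. Ndufs5 stands alone near -1.94 while most other subunits lie at or right of 0, and Cmpk2 is the only interferon gene with a star.

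Genes of innate immunity other than Tlr2 went both ways. Ifi202b (0.52 ± 0.12, limma adjusted p = 0.0462) and Irf4 (0.46 ± 0.10, adjusted p = 0.0412), not members of the interferon list below, rose. In each, both group means were under every array median, and neither was called when any single WT array was left out. Akna, an AT-hook protein, read 4.12, 4.06, 3.65 and 3.83 in WT and 5.32 and 5.11 in DKO (1.30 ± 0.18, 2.47-fold, limma adjusted p = 0.002; without DKO replicate 1, 0.0636). Elf4, an ETS factor of antiviral genes, rose by 1.08 ± 0.17. It was not called without DKO replicate 1 (adjusted p = 0.0759) or when its probe sets were averaged (0.0947). Ceacam1, an adhesion receptor that also promotes insulin clearance, fell from 6.99 to 7.21 in WT to 6.04 and 5.80 in DKO (-1.19 ± 0.15, 2.28-fold lower, adjusted p = 0.000781). The chemokine gene Ccl28 fell by 1.10 ± 0.21 on the log2 scale, and not without DKO replicate 1 (adjusted p = 0.14) or 2 (0.0947).

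Interferon response genes were mostly higher in DKO islets without passing. Of 28 measured, 24 had a higher mean, 12 were higher and 2 lower at an unadjusted p under 0.05, and the list median was 0.32. Irf7, a master regulator of type I interferon, was 4.57 to 5.29 in WT and 5.72 and 5.93 in DKO (0.96 ± 0.23, limma adjusted p = 0.068). Usp18 (0.47 ± 0.13, adjusted p = 0.12) and Stat2 (0.45 ± 0.13, adjusted p = 0.122) likewise had both DKO arrays above all WT arrays. The list means were -0.16, -0.20, 0.03 and 0.02 in WT and 0.04 and 0.26 in DKO, so that DKO replicate 1 was barely above the highest WT array. Cmpk2, a mitochondrial nucleotide kinase induced by interferon, was the 1 member called, and it fell, from 6.22 to 7.03 in WT to 5.64 and 5.89 in DKO (-0.90 ± 0.17, adjusted p = 0.0198). It was not called without WT replicate 3 (adjusted p = 0.0514) or DKO replicate 1 (0.259), nor with the 6 arrays alone (0.107) or with array weights (0.0572).

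No macrophage gene passed among 22 measured, although 4 were higher and 4 lower at an unadjusted p under 0.05 in limma. C1qa (-0.42 ± 0.10, limma adjusted p = 0.0601) and Adgre1, which encodes F4/80 (-0.71 ± 0.17, adjusted p = 0.0621), lay below WT in both DKO arrays, while Fcer1g (0.55 ± 0.14, adjusted p = 0.0941) and C1qc (0.55 ± 0.16, adjusted p = 0.134) lay above it. Adgre1 passed under repeated quantile normalization and under centring on array medians. T and NK cell genes (14 measured) and B and plasma cell genes (10 measured) had 0 calls, with 0 and 0 T and NK cell genes higher and lower at an unadjusted p under 0.05 and 0 and 1 B and plasma cell genes.

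Npas4 and some channel genes were lower in DKO islets, while other channel and transporter genes were higher. Npas4, an activity-dependent transcription factor that is induced by calcium entry in beta cells, read 4.26, 4.64, 5.36 and 5.70 in WT and 3.42 and 3.12 in DKO (-1.72 ± 0.34, 3.29-fold lower, limma adjusted p = 0.0258). The DKO mean of Npas4 was under every array median, so the fold is not exact. Its WT values were widely spread, and the call was lost without WT replicate 3 (adjusted p = 0.0649), DKO replicate 1 (0.156) or DKO replicate 2 (0.127), with the 6 arrays alone (0.0872) and with array weights (0.081). It was the only call among 30 immediate early genes, of which 22 had a lower mean in DKO and 5 were lower and 0 higher at an unadjusted p under 0.05. Zfp36, which destabilises cytokine mRNA, was 5.67 to 5.98 in WT and 5.33 and 5.11 in DKO (-0.60 ± 0.14, adjusted p = 0.0539), and Nr4a1 was 7.35 to 8.85 in WT and 6.32 and 6.79 in DKO (-1.48 ± 0.37, adjusted p = 0.0746). The list means, 0.02 to 0.16 in WT and -0.16 and -0.21 in DKO, did not overlap. Nor did those of several other lists: the circadian clock list lay at 0.005 to 0.05 in WT and -0.09 and -0.03 in DKO. In the other direction the Toll-like receptor list lay at -0.03 to -0.001 in WT and 0.01 and 0.03 in DKO. By gene, both DKO arrays lay below all WT arrays in 10 of 30 immediate early genes and 2 of 16 clock genes, against 10.3% of all genes. They lay above all WT arrays in 1 immediate early gene and 0 clock genes, against 11.2%.

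Among channels, Dpp10, an auxiliary subunit of A-type potassium channels, fell from 6.64 to 6.91 in WT to 5.19 and 5.76 in DKO (-1.34 ± 0.22, 2.53-fold lower, limma adjusted p = 0.0113; without DKO replicate 1, 0.196). Kcnn2, a small-conductance calcium-activated potassium channel, fell from 5.03 to 5.34 to 3.92 and 4.25 (-1.11 ± 0.16, adjusted p = 0.0033; without DKO replicate 1, 0.087). Atp2b4, a calcium pump of the plasma membrane, fell as well (-0.85 ± 0.13; without DKO replicate 1, adjusted p = 0.119). Of 20 genes in the potassium channel list 1 passed, 14 had a lower mean in DKO, and 4 were lower and 0 higher at an unadjusted p under 0.05 in limma. Of 10 calls grouped by hand as channels, pumps and transporters, 6 were lower and 4 higher. The 4 higher were Cnnm1 (1.08 ± 0.18), Slc2a13 (0.83 ± 0.15), Grid1 (0.81 ± 0.15) and Slc10a5 (0.63 ± 0.12). In Grid1 and Slc10a5 both group means were under every array median. None of these 4 was called in every fit that left out an array. Npr1, a natriuretic peptide receptor, rose by 0.96 ± 0.16, and was not called without DKO replicate 1 (adjusted p = 0.112) or 2 (0.0591).

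Dio1, a deiodinase of thyroid hormone, fell from 8.58, 8.31, 8.35 and 8.30 in WT to 6.59 and 7.07 in DKO (-1.55 ± 0.15, 2.94-fold lower, limma adjusted p = 0.000123). No other of 10 measured thyroid hormone genes passed, although Slc16a10 (-0.30 ± 0.11, adjusted p = 0.243) and Crym (-0.45 ± 0.17, adjusted p = 0.273) were also below WT in both DKO arrays. Ust, which sulfates uronic acid in chondroitin and dermatan chains, fell from 5.54, 5.40, 5.29 and 5.44 to 3.90 and 3.86 (-1.54 ± 0.17, 2.90-fold lower, limma adjusted p = 0.000279). The DKO mean of Ust was just under every array median, so the fold is not exact. Ext1, a polymerase of heparan sulfate, was 6.82 to 7.19 in WT and 7.47 and 7.46 in DKO (0.48 ± 0.12, adjusted p = 0.0706), and 27 of 28 genes of glycosaminoglycan synthesis did not pass. Glt1d1, a glycosyltransferase family member, fell from 5.75 to 6.29 to 4.47 and 4.27 (-1.59 ± 0.15, 3.02-fold lower, adjusted p = 8.72e-05).

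Among peptidases, Ide, the insulin-degrading enzyme, fell from 9.03, 8.99, 8.71 and 8.98 in WT to 8.03 and 8.27 in DKO (-0.78 ± 0.12, limma adjusted p = 0.00678). Anpep, aminopeptidase N, fell from 9.69 to 9.86 to 8.79 and 8.85 (-0.96 ± 0.12, adjusted p = 0.000781) and was one of the brightest falls. Ide was not called without DKO replicate 1 (adjusted p = 0.132). Pepd, a dipeptidase of proline-containing peptides, rose (0.86 ± 0.11) and was called whichever array was left out.

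Acta2, Loxl2 and Spon2, genes of contractile cells and matrix, fell. Of 14 calls grouped by hand as vessel, matrix and contractile proteins, 10 were lower and 4 higher. The 4 were Reln (1.04 ± 0.23), Cemip (0.69 ± 0.15), Itih4 (0.68 ± 0.13) and Csrp3 (0.52 ± 0.09). None of these 4 was called in all 6 fits that left out an array. Acta2, smooth muscle actin, was 7.26, 6.89, 6.91 and 7.05 in WT and 5.74 and 6.36 in DKO (-0.98 ± 0.17, limma adjusted p = 0.014), and was not called without DKO replicate 1 (adjusted p = 0.243) or with the 6 arrays alone (0.06). Loxl2, which crosslinks collagen, fell from 7.19 to 7.43 to 5.96 and 6.44 (-1.11 ± 0.12, 2.16-fold lower, adjusted p = 0.000356). Spon2, a matrix protein that aids macrophage responses, fell from 7.37 to 7.59 to 6.08 and 6.58 (-1.17 ± 0.23, adjusted p = 0.024; without WT replicate 1, 2 or 3 it was 0.0673, 0.0541 and 0.0592, without DKO replicate 1, 0.316, and with the acinar covariate, 0.0707).

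Jam2, an endothelial junction gene (-0.76 ± 0.11; without DKO replicate 1, adjusted p = 0.0842), and F8, coagulation factor VIII made by endothelium (-0.92 ± 0.12), also fell. Of the 18 genes of the endothelial list 0 passed, 1 was higher and 0 lower at an unadjusted p under 0.05 in limma, and the defining genes Pecam1 (7.02 to 7.42 in WT, 7.02 and 7.49 in DKO) and Cdh5 (7.33 to 7.71, 7.13 and 7.55) overlapped between groups. Of 18 stellate cell, pericyte and fibroblast genes Acta2 alone passed and 4 were lower and 0 higher at that level, among them Myh11 (-0.55 ± 0.16, limma adjusted p = 0.139) and Tagln (-0.52 ± 0.17, adjusted p = 0.206). The list mean was -0.03 to 0.19 in WT, -0.23 in DKO replicate 1 and 0.02 in DKO replicate 2, so that only replicate 1 lay below every WT array. Whether the number of these cells differed was not tested.

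Several of the largest changes belonged to none of these groups. Trnp1, a nuclear protein known from neural progenitors, rose from 4.14, 4.38, 4.37 and 4.00 in WT to 6.64 and 6.54 in DKO (2.37 ± 0.23, 5.15-fold, limma adjusted p = 0.000108). Fam163a read 4.28, 4.30, 5.48 and 4.40 in WT and 6.43 and 6.32 in DKO (1.76 ± 0.36, adjusted p = 0.0293), with WT replicate 3 nearer to the DKO arrays than the others. It was not called when any array other than WT replicate 3 was left out (adjusted p = 0.0637 to 0.245), with the 6 arrays alone (0.0553) or with the acinar covariate (0.0962). Fam107a, an actin-binding stress-response gene, read 4.13 to 4.44 in WT but 6.86 and 5.11 in DKO (1.71 ± 0.36, adjusted p = 0.0376; without DKO replicate 1, 0.84 and 0.435, without any single WT array, 0.0707 to 0.0824, with the 6 arrays alone, 0.106, and with the acinar covariate, 0.126).

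Rec8, the cohesin subunit of meiosis, fell from 5.90, 5.70, 5.82 and 5.77 in WT to 3.54 and 4.21 in DKO (-1.93 ± 0.22, 3.80-fold lower, limma adjusted p = 0.000468). The DKO mean of Rec8 was just under every array median, so the fold is not exact. Dock10 fell from 7.14 to 7.23 to 5.30 and 5.72 (-1.69 ± 0.21, 3.23-fold lower, adjusted p = 0.000776). Depp1, a target of FOXO factors, fell from 8.18 to 8.39 to 6.98 and 6.59 (-1.53 ± 0.27, adjusted p = 0.0143), and not without DKO replicate 1 (0.0759) or 2 (0.0959) or with the acinar covariate (0.0507). Snhg11, a long non-coding RNA that hosts small nucleolar RNAs, rose (1.60 ± 0.17, 3.04-fold, adjusted p = 0.000203), as did Nmnat2, an enzyme of NAD synthesis in axons (1.24 ± 0.22, adjusted p = 0.0133; without DKO replicate 1, 0.201). Rab2b, a small GTPase of the secretory pathway, rose from 6.15 to 6.47 to 7.45 and 7.71 (1.23 ± 0.14, adjusted p = 0.000484). The other genes among the 20 largest rises were Lypd10 (1.46 ± 0.19), Ppp1r17 (1.45 ± 0.30), Klhl33 (1.34 ± 0.18) and H2bc18, a histone gene (1.12 ± 0.21). The other genes among the 20 largest falls were Pcp4l1 (-1.51 ± 0.26), Cblc, a ubiquitin ligase (-1.46 ± 0.22), Dubr, a non-coding RNA (-1.28 ± 0.26), Rflna (-1.27 ± 0.13) and Tmem260 (-1.18 ± 0.12). Without DKO replicate 1 the calls of Ppp1r17 (adjusted p = 0.338), H2bc18 (0.201), Cblc (0.0759) and Dubr (0.304) were lost, and without DKO replicate 2 those of Ppp1r17 (0.0624), H2bc18 (0.08), Pcp4l1 (0.101) and Dubr (0.0627). Of the WT arrays, leaving out replicate 1, 2 or 3 ended the call of Ppp1r17 (0.0777 to 0.0887), replicate 2 or 3 that of Dubr (0.0624 and 0.0513) and replicate 3 that of H2bc18 (0.0514). Of 346 tested genes with names of the form Zfp, zinc finger proteins, 5 passed (1.45%), against 0.994% of all genes. All 5 were lower in DKO, by 0.59 to 0.78 on the log2 scale, against 0.494% of all genes called lower. None of the 5 was called in all 6 fits that left out an array. With 5 calls the Zfp share cannot be told from that of all genes.

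The brightest rises were Tmem184a (0.61 ± 0.12), Rps9, a ribosomal protein (0.41 ± 0.09), Scarna17, a small Cajal body RNA (0.62 ± 0.11), Srp9, of the signal recognition particle (0.71 ± 0.16), and Snora61, a small nucleolar RNA (0.93 ± 0.16). The other probe set of Rps9 differed by -0.56, so that the average of both gave -0.08 and no call (limma adjusted p = 0.857), and its direction is not settled. The brightest falls were Spock2, a matrix proteoglycan (-0.54 ± 0.09), Entpd4, a Golgi nucleotidase (-0.74 ± 0.11), Anpep, Scnn1b, a subunit of the epithelial sodium channel (-0.49 ± 0.10), and Bpnt1 (-0.68 ± 0.12). Of these 10 genes only Anpep was called in all 6 fits that left out an array (without DKO replicate 1 the adjusted p was 0.333 for Scnn1b, 0.159 for Scarna17 and 0.24 for Snora61).

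No hormone or beta cell identity gene of the lists passed. Ins2 (0.00 ± 0.08), Gcg (-0.09 ± 0.11) and Sst (-0.06 ± 0.10) did not pass, and the sign of Ins2 turned with repeated quantile normalization. At these high signals whether the probe sets can show a rise was not tested. None of 15 beta cell transcription factor genes or 23 genes of beta cell maturity and glucose sensing passed in limma; at an unadjusted p under 0.05 the former held 1 higher and 0 lower, the latter 0 higher and 1 lower. The means of the maturity list were 0.03 to 0.06 in WT and -0.11 and -0.06 in DKO, with 20 of 23 members lower in mean. The list means of the groups did not overlap, as was also so in other lists such as that of the circadian clock. By gene the 2 lists differed. Both DKO arrays lay below all WT arrays in 11 of 23 maturity genes and 2 of 16 clock genes, against 10.3% of all genes. They lay above all WT arrays in 2 maturity genes and 0 clock genes, against 11.2%. Mafa, a factor of mature beta cells, was 7.48 to 7.62 in WT and 8.25 and 7.85 in DKO (0.48 ± 0.22, limma adjusted p = 0.404), while Cpe, carboxypeptidase E, which trims prohormones, was 11.8 to 11.9 in WT and 11.7 in both DKO arrays (-0.19 ± 0.08, adjusted p = 0.38).

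**Figure D3:**
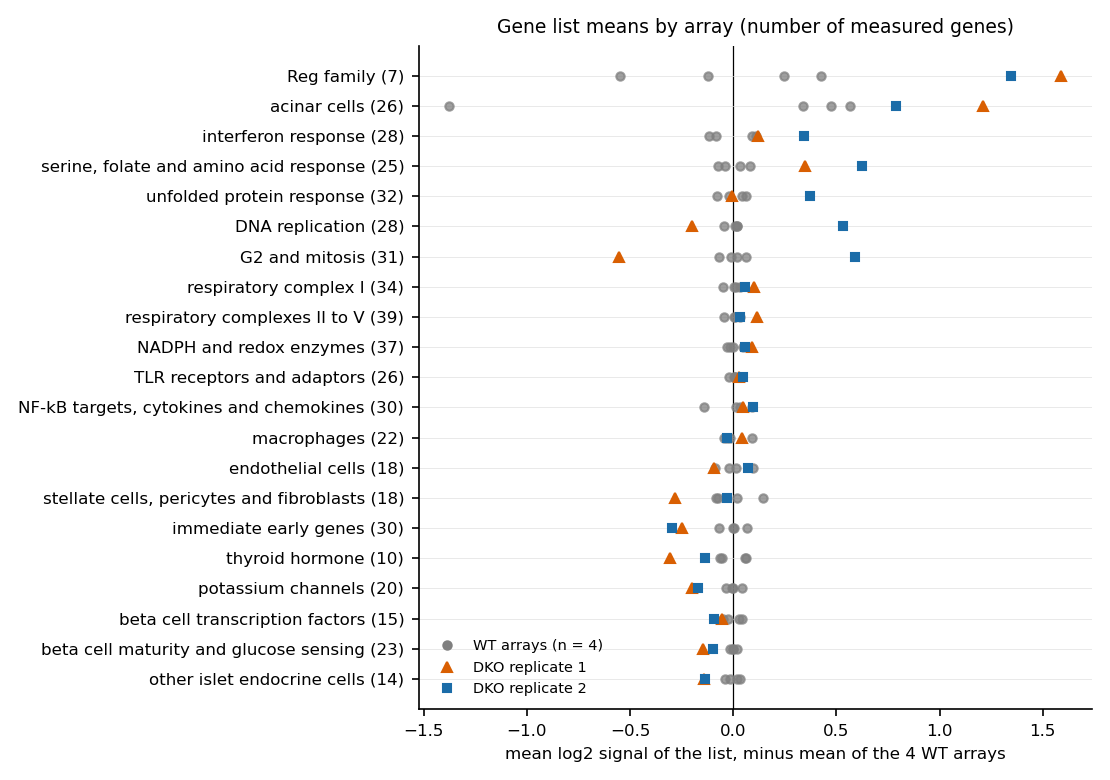
Mean log2 signal of 21 gene lists in each array, with the mean of the 4 WT arrays set to 0 and the number of measured genes in brackets. Acinar genes are low in WT replicate 2, and the DNA replication and G2 and mitosis lists lie on opposite sides of WT in the DKO arrays.

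The DKO arrays disagreed with each other on genes of cell division. They were at least 2-fold apart in 143 genes (0.76%), 3 of them called, against 39 to 102 genes, with a median of 61.5, in the 6 pairs of WT arrays. The 10 genes furthest apart with the higher signal in DKO replicate 2 were Mki67, Top2a, Ckap2, Ect2, Pbk, Gm773, Ccna2, Tpx2, Knl1 and Cdc6, which other than Gm773 are genes of DNA replication or mitosis. Gm773 read 1.43 to 1.76 in WT and 2.79 and 4.71 in DKO, so that both DKO arrays lay above WT, and it rose (2.17 ± 0.33, limma adjusted p = 0.00607). Both its group means were under every array median, and at 7 months it differed by 0.18 without passing. Mki67, which encodes the proliferation marker Ki-67, read 5.45, 4.84, 5.16 and 5.00 in WT, 3.52 in DKO replicate 1 and 6.22 in DKO replicate 2. Top2a, topoisomerase II alpha, read 4.43 to 4.92 in WT and 3.12 and 5.76 in DKO, and Ccna2, cyclin A2, 4.56 to 5.19 in WT and 3.86 and 5.75 in DKO. Replicate 1 was thus below and replicate 2 above every WT array for Mki67, Top2a and Ccna2.

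The split ran through both lists of the cell cycle. DKO replicate 1 was lowest and DKO replicate 2 highest of the 6 arrays in 19 of 31 G2 and mitosis genes and 10 of 28 DNA replication genes, against 4.53% of all genes, and the reverse held in 0 of both lists, against 3.69%. The G2 and mitosis mean was -0.08 to 0.06 in WT, -0.56 in DKO replicate 1 and 0.58 in DKO replicate 2, and the DNA replication mean was -0.10 to -0.04, -0.25 and 0.48. None of the 59 genes passed in limma, 1 of them being higher and 0 lower at an unadjusted p under 0.05. For Mki67 the difference between genotypes was -0.24 ± 0.67 (limma adjusted p = 0.938) and turned to 1.11 without DKO replicate 1. The cyclin gene Ccnd2, needed for beta cell division, read 11.4 to 11.5 in all 6 arrays.

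Genes of the unfolded protein response were higher in DKO replicate 2 as well. The list mean was -0.14 to 0.00 in WT, -0.07 in DKO replicate 1 and 0.31 in DKO replicate 2, and 7 of its 32 genes had the first DKO array lowest and the second highest. None passed, with 3 higher and 0 lower at an unadjusted p under 0.05 in limma. In the opposite direction the genes furthest apart were Zkscan4, Fam107a, C1ra, Cfi, Bcl6, Ldlrad3, Tbrg3, Cebpd, Try5 and Aqp12. Of these C1ra and Cfi encode complement proteases, Try5 a trypsin of acinar cells, and Cebpd an acute-phase transcription factor. C1ra read 2.79 to 3.75 in WT and 4.07 and 2.35 in DKO, and Bcl6, a transcriptional repressor, 4.42 to 4.92 in WT and 5.36 and 3.80 in DKO.

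**Figure D4:**
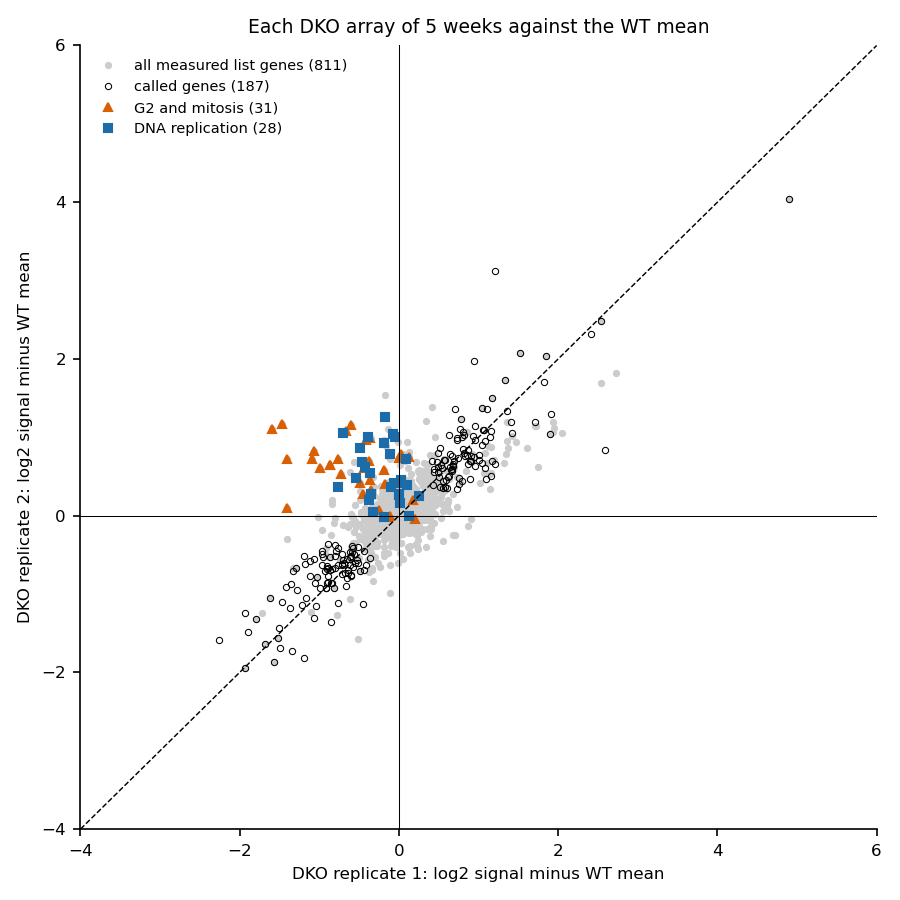
DKO replicate 1 (x axis) against DKO replicate 2 (y axis), each as log2 signal minus the mean of the 4 WT arrays; the dashed line marks equal values. Called genes, open circles, have both DKO arrays on the same side of WT, which follows in part from how they were called. Gm773, Fam107a and Lypd10 among them lie far from the line. The 31 G2 and mitosis and 28 DNA replication genes lie mostly above it.

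Many of the differences were found again in the 8 arrays of 7 months, which are separate samples of both genotypes. The times share 1 estimate of the spread per gene, so that passing at both is not an independent repeat. A same-sign share over all genes was not analysed here. Of the 187 genes, 160 (85.6%) had the same sign there and 99 also passed, 48 higher and 51 lower, which is 52.9% of the calls at 5 weeks and 11.2% of the 887 at 7 months (4.71% of all genes). None of the 99 had changed sign, and of the 27 genes with opposite sign 0 passed at 7 months in limma. Reg2 differed by 3.87, Fbp1 by 3.94, Trnp1 by 2.43, Aldh1a3 by 2.69 and Nnt by 1.61 there, and Ndufs5 by -1.90, Npas4 by -2.42 and Dock10 by -2.18. Leaving out 1 array of 5 weeks moved the count of 99 to between 32 (without DKO replicate 1) and 84 (without WT replicate 4); it was 61 without DKO replicate 2 and 63 without WT replicate 2.

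**Figure D5:**
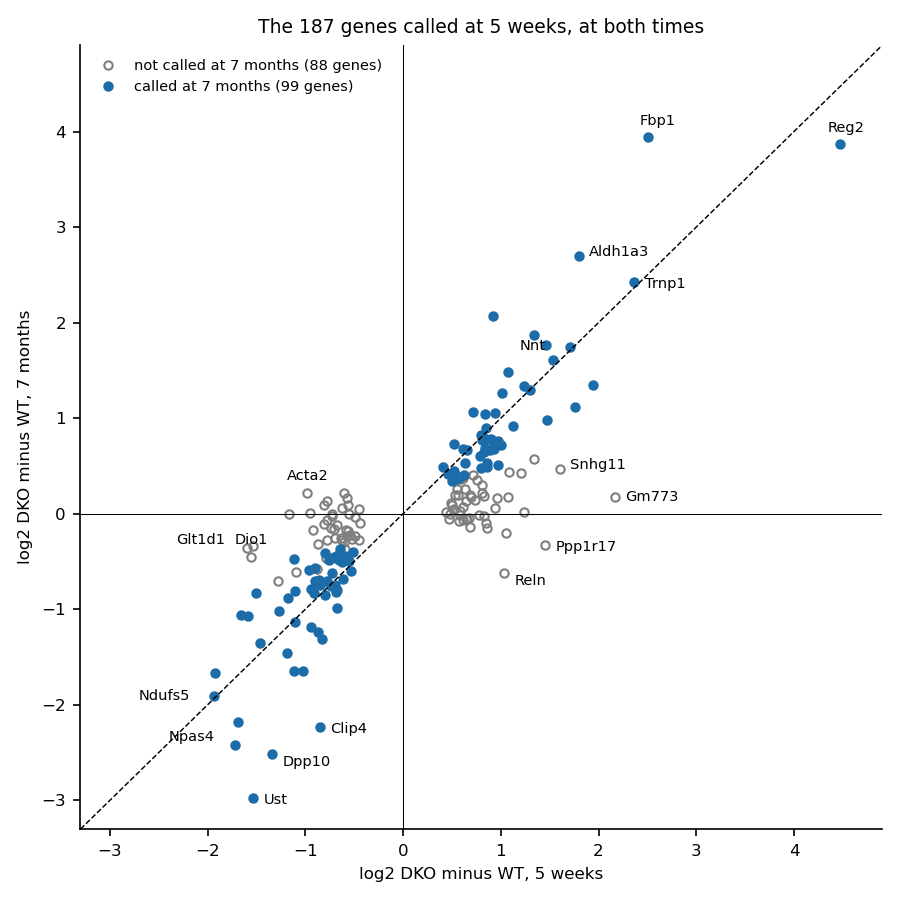
Difference between DKO and WT at 5 weeks (x axis) and 7 months (y axis), in log2 units, for the 187 genes called at 5 weeks; filled points also passed at 7 months and the dashed line marks equal differences. Filled points follow the line, and 88 open points lie nearer to 0 at 7 months.

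The other 88 genes did not pass at 7 months, with a median size of 0.70 at 5 weeks and 0.18 at 7 months. They included Snhg11 (0.47 at 7 months), Nmnat2 (0.01), Dio1 (-0.45), Depp1 (-0.33), Acta2 (0.22), Spon2 (0.00), F8 (-0.18) and Ccl28 (-0.61). A difference between the times needs its own test: the interaction passed in 17 genes (0.0903%), 3 of them among the 187. Ust was further below WT at 7 months (-2.97) than at 5 weeks, with a difference between the times of 1.43 ± 0.21 (limma adjusted p = 0.0177). Clip4, a protein of microtubule ends, fell by 0.85 at 5 weeks and 2.23 at 7 months on the log2 scale (1.38 ± 0.23, adjusted p = 0.0341), and its call at 5 weeks was lost without WT replicate 2, 3 or 4 or either DKO array (adjusted p = 0.0607 to 0.239), with the 6 arrays alone (0.0518), with the acinar covariate (0.124) and with array weights (0.0773). Glt1d1 differed by -1.59 at 5 weeks and -0.36 at 7 months (-1.23 ± 0.19, adjusted p = 0.0197).

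Calls were spread over 19 autosomes and the X chromosome, though unevenly. They made up 1.98% of the genes tested on chromosome 1, 1.84% on chromosome 13 and 1.79% on chromosome 4. On chromosomes 11 and 8 they made up 0.204% and 0.224%, against 0.994% of all genes tested. Fbp1 and Nnt are both on chromosome 13, Ndufs5 and Dio1 on chromosome 4 with Tlr4, and Tlr2 is on chromosome 3. Among the 20 tested genes on each side of Tlr2, 2 of 40 passed, Snord73b, a small nucleolar RNA that fell by 1.59 ± 0.20, and 4930579G24Rik, which fell by 0.81 ± 0.18 and was called in only 1 of the 6 fits that left out an array (without DKO replicate 2). Around Tlr4 1 of 40 passed, Akna. Over all genes 0.994% passed, and counts of 2 and 1 among 40 are too small to set against that share. Whether sequence that differs between the strains near the deleted genes bears on these neighbours was not tested.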

How the data were processed

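RNA of snap-frozen islets (100 ng per sample) was labelled and hybridised to whole-transcript Affymetrix arrays, per the labels' protocols. The deposited values are log2 signals summarised by RMA, per the submitters' processing notes; its version and the genome build of the probe annotation are not given in the sources used here. Of 35556 probe sets, 21218 carried 1 symbol, 1881 several and 12457 none; those with 1 symbol gave 18820 genes, and the brightest probe set stood for each gene. Array medians of all 14 arrays were 3.886 to 3.978, and the number of arrays limits the precision.

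A linear model over the 4 groups was fitted with limma 3.58.1 in R 4.3.3 (10 residual degrees of freedom), with contrasts for 5 weeks, 7 months and their difference, and p-values adjusted by Benjamini-Hochberg over all genes. The p-values measure the spread between these mice. The fit was tested on simulated data. Members and gene lists (38 lists) were chosen with earlier results of these data known. The text names Tlr2 and Tlr4, the 20 largest calls in each direction (symbols of placeholder, small nucleolar RNA, microRNA, receptor cluster and immune segment genes passed over), the 5 brightest calls in each direction, up to 4 members per list by p, the 10 genes furthest apart between the DKO arrays in each direction, hormone and cycle genes, and calls of the interaction. Other called genes, and the grouping of calls by function, were chosen after their values were seen. Alternatives changed the samples, prior, filter, probe sets, scaling, blocks, an acinar covariate and array weights, and left out each array.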

Additional observations from a re-analysis of the deposited data

Results flagged for a closer look

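In 5 of 104 values tested over the 4 WT arrays, 1 array stood apart from the others; chance gives about 1 in 20. Fam163a reached 5.48 in WT replicate 3, against 4.28 to 4.40 elsewhere. Scarna17 read 8.52 in WT replicate 3, against 8.82 to 8.84 elsewhere. Lypd10 read 1.99 in WT replicate 1, against 2.03 to 2.04 elsewhere, all below the array medians. The mean of the acinar list stood at -1.71 in WT replicate 2, against 0.00 to 0.23 elsewhere, and that of the DNA replication list at -0.10 in the same array, against -0.05 to -0.04. For 3 called genes the difference between genotypes itself differed between the times by the limma interaction: Ust by 1.43, Clip4 by 1.38 and Glt1d1 by -1.23 (5 weeks minus 7 months, log2).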

How the results depend on the processing

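With only 2 DKO arrays, the count of calls depended on which arrays entered. Against 187 calls (94 higher, 93 lower), the 6 arrays alone gave 120 (59 higher, 61 lower), of which 84 were among the 187. The acinar covariate gave 97 (44 higher, 53 lower, 62 also called at 7 months), and a trended robust prior 282 (156 lower). Without dim genes 147 were called lower. Deviations of same-numbered WT and DKO arrays from their group means correlated at r = -0.065 and -0.006 over genes. With 2 DKO arrays their deviations mirror each other, so these values cannot decide whether the numbers pair samples. The replicate block gave 121 calls, 56 of them higher. Interaction calls, 17, became 46 with the trended robust prior, 35 without dim genes, 10 with the replicate block and 28 with array weights. Leaving out 1 array gave 44 to 171 calls, 22 to 87 higher, 22 to 90 lower, 31 to 73 at least 2-fold, 32 to 84 also called at 7 months and 2 to 36 interaction calls. Of 57 named called genes besides Tlr2, 20 were called in every setting, 35 were lost without DKO replicate 1 and 22 without DKO replicate 2. The replicate block ended the calls of Npas4 (adjusted p = 0.0942) and Clip4 (0.0971), among others. Small differences changed sign or came to 0: Rps9 (-0.075, probe sets averaged); Ins2 0.045, Sst 0.00 and Ccnd2 0.044 with repeated quantile normalization; Mki67 0.10 and Ccnd2 0.057 with the replicate block; Ins2 0.013 and Mki67 0.017 with the acinar covariate. Over the fits that left out 1 array, Ins2 ran from -0.047 (without WT replicate 3) to 0.032 (without WT replicate 4), Mki67 from -1.60 (without DKO replicate 2) to 1.11 (without DKO replicate 1), and Ccnd2 from -0.074 (without DKO replicate 1) to 0.030 (without DKO replicate 2). The cause was not tested. The 6 arrays alone give no interaction or overlap with 7 months, and the filter on dim genes removed Tlr4.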

Other observations

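Aldh1l2, Psat1, Mthfd1l and Adm2, genes of serine and folate metabolism or of the amino acid response, rose, and Ggh, a folate hydrolase, fell. The first 4 belong to a list of 25 measured genes that was put together after values were seen, so that its direction is no evidence, and the other 21 did not pass. Aldh1l2, a mitochondrial folate enzyme, read 7.09, 7.18, 7.15 and 7.12 in WT and 8.30 and 8.64 in DKO (1.34 ± 0.23, limma adjusted p = 0.0125). Psat1, of serine synthesis, read 5.33, 5.33, 5.21 and 5.16 in WT and 6.03 and 6.48 in DKO (1.00 ± 0.17, adjusted p = 0.0119). Mthfd1l, another mitochondrial folate enzyme, and Adm2, a peptide hormone, rose by 0.64 ± 0.10 and 1.21 ± 0.22. Ggh read 6.32 to 6.49 in WT and 5.46 and 5.89 in DKO (-0.74 ± 0.14, limma adjusted p = 0.0206), and was not called without WT replicate 1 (0.0626), WT replicate 2 (0.0571) or DKO replicate 1 (0.317). The groups did not overlap in any of the 5, as in all 187 called genes, so this does not set the 5 apart. Phgdh, the first enzyme of serine synthesis, was 6.44 to 6.84 in WT and 7.20 and 7.32 in DKO (0.60 ± 0.14, limma adjusted p = 0.0539). Without DKO replicate 1, Psat1 was the 1 member of the list called, and without DKO replicate 2, 0 were. At 7 months Psat1 (0.72), Mthfd1l (0.53) and Phgdh (0.82) passed, and Aldh1l2 (0.57) and Adm2 (0.43) did not.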
